A study of Mus musculus with 7 samples.

Results

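Cell junctions hold neighbouring cells together, seal the space between them and let small molecules pass from one cell to the next. The genes described here encode 4 kinds of junction: tight junctions, adherens junctions, desmosomes and gap junctions. They were chosen by name from the deposited count table. The claudin (Cldn), zonula occludens (Tjp), cadherin (Cdh), desmoglein (Dsg), desmocollin (Dsc), plakophilin (Pkp) and connexin (Gja, Gjb, Gjc) families were taken whole. Occludin (Ocln), F11r, Cgn, Cgnl1, Marveld2, Marveld3, Dsp, Jup, Ctnna1 and Ctnnb1 were added. The rule found 97 members among the 37620 genes of the table, of which 41 were counted as tight junction, 25 as adherens junction, 15 as desmosome and 16 as gap junction genes.

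RNA was sequenced from whole liver of C57BL/6 mice, all of which had eaten a Western diet for 30 weeks. Total bile acids set the 2 groups in the labels, with 4 libraries named H-TBA (high) and another 3 named L-TBA (low). The groups shared strain, tissue and diet, and no untreated or chow-fed group was part of the comparison. The labels do not say if every library is from an animal of its own, so a p-value here reflects only how these libraries vary, and that variation may be technical.

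In liver, tight junctions of hepatocytes close off the bile canaliculus from the blood side, and those of bile duct cells line the ducts further down. Claudins set which ions and solutes can pass, occludin and tricellulin (Marveld2) join them in the membrane, and zonula occludens proteins and cingulin (Cgn) tie them to actin. Classical cadherins pair across adherens junctions and bind catenins inside the cell. Desmogleins and desmocollins do the same in desmosomes, where plakoglobin (Jup), plakophilins and desmoplakin (Dsp) link them to keratin filaments. Connexins form gap junction channels, and connexin 32 (Gjb1) and connexin 26 (Gjb2) are the main ones of the hepatocyte.

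Of the 97 junction genes, 52 had enough counts to be tested, 26 had some counts but too few, and 19 had none in any library. Among the tested genes 20 rose and 6 fell in H-TBA (edgeR, quasi-likelihood, adjusted p under 0.05). Over all 15249 genes tested, 13.1% rose and 10.7% fell, against 38.5% and 11.5% of the tested junction genes. With library totals in place of TMM scaling, 26 junction genes rose and 4 fell, against 3117 and 832 of all tested genes, whose median log2 fold change moved from 0.00 to 0.16. The median log2 fold change (H-TBA over L-TBA) was 0.27 for the tested junction genes and 0.00 for all tested genes. The groups did not overlap for 22 junction genes with H-TBA above and 6 with H-TBA below, where such separation was seen in 17.2% and 16.3% of all tested genes. Of the tested members 3, among them Cldn11 and Gjc1, reached the filter only through their H-TBA libraries, so that a rise was the only change they could show, and the counts are a description. Cdh18, which fell, was over the filter in 3 L-TBA libraries but only 1 H-TBA library, and so entered the test through L-TBA.

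**Figure D1:**
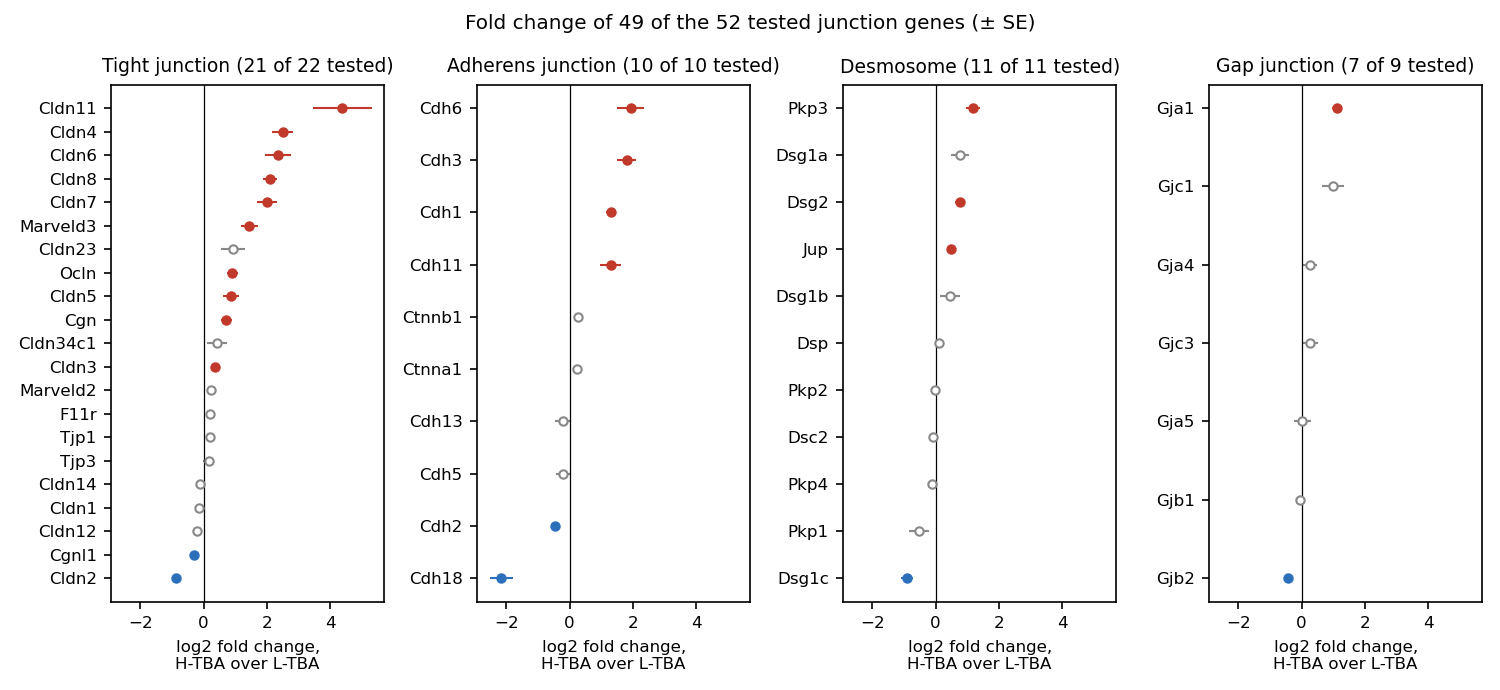
Log2 fold change (H-TBA over L-TBA, horizontal axis) of 49 of the 52 tested junction genes, each with its standard error, by junction class. Filled red points rose, filled blue points fell and open grey points did not pass; each class holds genes of all 3 kinds, and the tight junction panel has the most that rose (10 of 22).

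Total counts lay between 9996990 and 12152613 per library. H-TBA 1 stood apart from the other H-TBA libraries, at 10.7 on the first principal component against 34.6 to 43.5 for them and -45.2 to -36.8 for L-TBA. It was the lowest H-TBA library for 18 of the 20 junction genes that rose, and for 66.6% of all genes that rose. Markers of bile duct cells (Krt19, Epcam, Sox9 and 9 others) rose in 12 of 12 cases. Their summed level was 503 to 781 CPM (counts scaled to the TMM-adjusted library total) in L-TBA and 1083 to 2040 in H-TBA, with H-TBA 1 the lowest of its group. Of 10 hepatocyte markers 2 rose and 3 fell, with Alb at 41021 ± 4299 CPM (SD, n = 3) in L-TBA and 37121 ± 2106 (SD, n = 4) in H-TBA. Of 9 vascular endothelial markers 3 rose, of 8 sinusoidal endothelial markers 7 fell, of 9 stellate and fibroblast markers 3 rose and 1 fell, and of 5 tested mesothelial markers 3 rose. Of 10 macrophage and leukocyte markers 3 fell. Beside these marker counts, 13.1% of all tested genes rose and 10.7% fell. Of the markers of pancreas, intestine and skin, Cpa1, Pnlip, Ins2 and Cdx2 were listed at 0 in all 7 libraries, and Prss2, Krt5, Krt14 and Krt1 were too low to test. Cela1 was at 10.0167 to 17.9 CPM and Krt10 at 1.29 to 2.90 CPM without passing, and Vil1, an actin-bundling protein of microvilli, rose from 0.904 ± 0.271 to 4.05 ± 1.22 CPM (adjusted p = 0.00124). The part of cell composition in the junction results was not tested, and in whole tissue fewer cells of a type and less RNA per cell cannot be told apart.

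Among the tight junction genes, 10 of the 22 tested rose (45.5%) and 2 fell (9.09%), against 13.1% and 10.7% of all tested genes. The claudins split: Cldn4, Cldn6, Cldn7 and Cldn8, all at a few CPM in L-TBA, rose by 2.0 to 2.50 on the log2 scale, while the abundant Cldn2 fell. The median log2 fold change of the 12 bile duct markers was 2.12. Cldn4 (ENSMUSG00000047501), a barrier-forming claudin of many lining epithelia, was at 4.66, 3.95 and 3.01 CPM in the L-TBA libraries and at 10.7, 20.5, 29.5 and 27.2 CPM in H-TBA. Its lowest H-TBA library, H-TBA 1, lay above every L-TBA library, and the log2 fold change was 2.50 ± 0.33 (SE; adjusted p = 0.000547). Cldn7 (ENSMUSG00000018569), which is found along the lateral membrane of epithelia as well as at the junction, was at 5.10, 5.56 and 3.61 CPM in L-TBA and 10.8, 15.3, 27.6 and 22.4 CPM in H-TBA (log2 fold change 2.0 ± 0.30, adjusted p = 0.00108).

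Cldn6 (ENSMUSG00000023906), a claudin of embryonic epithelia that is low in most adult tissue, was at 3.11, 1.53 and 2.20 CPM in L-TBA and at 5.14, 8.70, 18.2 and 14.5 in H-TBA. Its log2 fold change was 2.35 ± 0.42 (adjusted p = 0.00262), with the same order of libraries as Cldn4: H-TBA 1 lowest and H-TBA 3 highest. Cldn8 (ENSMUSG00000050520) behaved otherwise within H-TBA. It was at 2.94, 1.53 and 2.40 CPM in L-TBA and at 8.97, 10.1, 10.4 and 9.87 in H-TBA, so H-TBA 1 was close to the other 3 libraries, and it had the smallest adjusted p of all junction genes (log2 fold change 2.10 ± 0.21, adjusted p = 0.000141). Cldn11, known from myelin and the testis, had 69 counts over H-TBA and 2 in L-TBA, both in L-TBA 1. The ratio after scaling was 24.7 (95% Clopper-Pearson interval 6.59 to 208, counting error only), and the adjusted p was 0.00599. Without L-TBA replicate 1 the fitted log2 fold change went from 4.38 to 7.06. With a stricter filter, or when H-TBA 2, 3 or 4 was left out, Cldn11 did not pass the filter and so was not called. It was called in the 11 alternatives that kept it. In the main fit 0 L-TBA libraries were over the filter for Cldn11. Where a filter was used, a rise was thus the only change it could show, so these calls are a description.

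Cldn2 (ENSMUSG00000047230) forms pores for cations and water and is a claudin of hepatocytes. It was at 170, 179 and 153 CPM in L-TBA and at 114, 69.2, 86.0 and 99.9 CPM in H-TBA, with no overlap between the groups. The log2 fold change was -0.86 ± 0.14 (adjusted p = 0.00175). Cldn3, the highest claudin per length in these livers, went the other way and by less: 123, 115 and 123 CPM in L-TBA against 139, 145, 186 and 155 CPM in H-TBA (log2 fold change 0.38 ± 0.11, adjusted p = 0.0259). Its groups did not overlap, but leaving out H-TBA 4 or any 1 L-TBA library ended the call (adjusted p = 0.0575 and 0.0642 to 0.0954). Cldn3 lies opposite to an annotated antisense gene, and the strand setting of the counting is not given, so their reads may be mixed.

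The other 2 claudins abundant in these livers, Cldn1 and Cldn12, did not pass. Cldn1 lay between 83.4 and 113 CPM in L-TBA and between 82.1 and 98.1 CPM in H-TBA (log2 fold change -0.14 ± 0.11, adjusted p = 0.385), and Cldn12 was at -0.21 ± 0.10 (adjusted p = 0.14, and 0.0379 without H-TBA replicate 1). Cldn14 stood at 8.69 ± 0.53 CPM (SD, n = 3) in L-TBA and 8.01 ± 0.698 CPM (SD, n = 4) in H-TBA. With library totals in place of TMM, the signs of Cldn1 and Cldn14 turned. Cldn5, the claudin of endothelial cells, passed at 0.86 ± 0.25 (adjusted p = 0.0295) with overlapping groups: 8.81, 4.13 and 7.01 CPM in L-TBA and 8.50, 14.4, 14.2 and 11.2 CPM in H-TBA. Leaving out H-TBA 2, 3 or 4, or L-TBA 2 or 3, ended its call (adjusted p = 0.0559 to 0.0971).

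**Figure D2:**
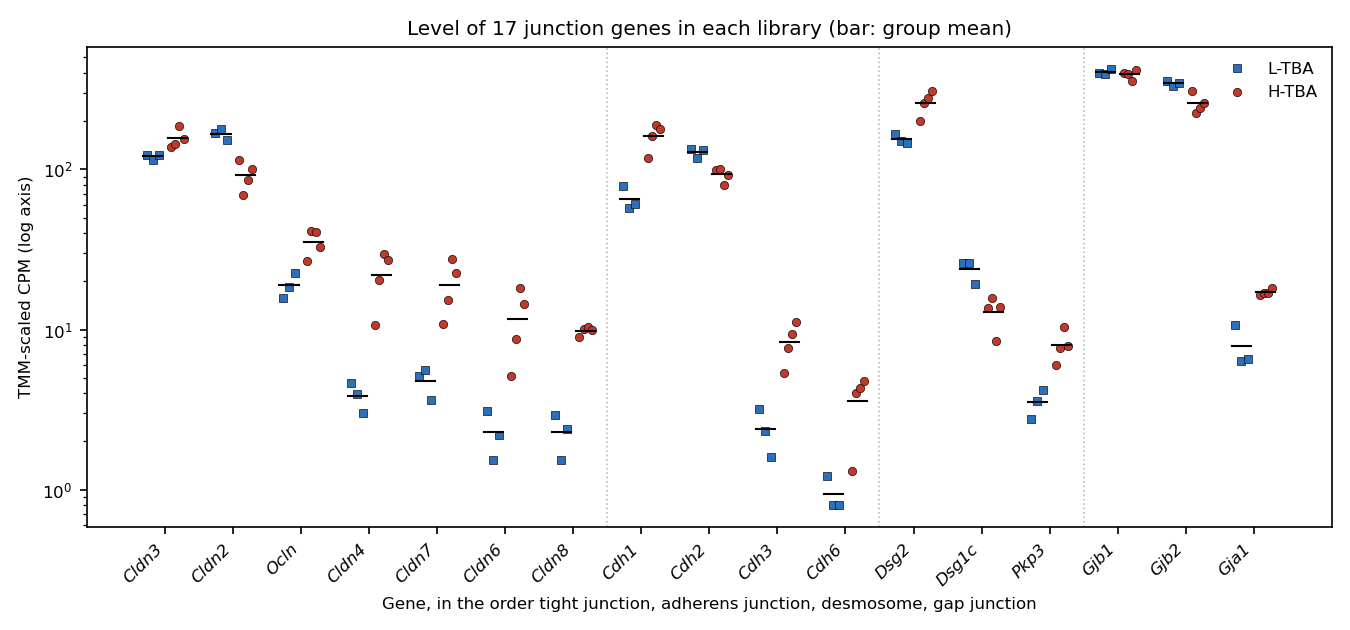
TMM-scaled CPM on a log axis for 17 junction genes (horizontal axis), with blue squares for the 3 L-TBA libraries, red circles for the 4 H-TBA libraries and a bar for each group mean. Cldn4, Cldn6, Cldn7, Cldn8, Cdh1, Cdh3, Dsg2, Pkp3 and Gja1 lie higher in every H-TBA library than in any L-TBA library, Cldn2, Cdh2, Dsg1c and Gjb2 lower, and Gjb1 overlaps.

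Occludin and Marveld3 rose, while the zonula occludens scaffolds Tjp1 and Tjp3 did not pass. Occludin (Ocln, ENSMUSG00000021638) rose from 15.7, 18.4 and 22.5 CPM to 26.6, 41.4, 40.6 and 32.6 CPM (log2 fold change 0.91 ± 0.17, adjusted p = 0.00292). Marveld3, an occludin relative, rose by 1.44 ± 0.26 from 1.79 ± 0.346 CPM, while the other relative, Marveld2 at contacts of 3 cells, missed the threshold at 0.24 ± 0.10 (adjusted p = 0.11). Marveld2 passed with library totals and without H-TBA replicate 1 (adjusted p = 0.0394 and 0.0366). Tjp1 and Tjp3 were at 0.21 ± 0.09 and 0.17 ± 0.17 (adjusted p = 0.128 and 0.516). Without H-TBA replicate 1, Tjp1 passed (adjusted p = 0.028). The adhesion protein gene F11r, which encodes JAM-A, lay at 120 ± 15.7 CPM in L-TBA and 139 ± 21.6 CPM in H-TBA and did not pass (adjusted p = 0.269).

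The cingulin pair went in opposite directions. Cgn (ENSMUSG00000068876) was at 38.4, 39.6 and 34.4 CPM in L-TBA and at 40.8, 60.3, 74.7 and 70.8 CPM in H-TBA (log2 fold change 0.72 ± 0.17, adjusted p = 0.0114), with H-TBA 1 just above the highest L-TBA library. Its relative Cgnl1, or paracingulin, which binds both tight and adherens junctions, passed at -0.30 ± 0.09 (adjusted p = 0.0349). It went from 115 ± 11.4 to 93.6 ± 6.05 CPM, and leaving out H-TBA 2, 3 or 4, or L-TBA 1 or 2, ended its call (adjusted p = 0.0517 to 0.146). In those fits, each lacking 1 library, Cldn2 was the only tight junction gene called lower. The call of Cgnl1 was also lost with library totals (log2 fold change -0.15, adjusted p = 0.341) and with the replicate number as a block (adjusted p = 0.114).

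The stretches before the start sites of Cldn4, Cgn and Cldn2 are shown because they belong to tight junction genes that rose, with matches to motifs of epithelial regulators, and to the abundant claudin that fell. RefSeq windows (GRCm38.p6) matched 60 of the 97 members by symbol, and the 250 bases before each start were searched on both strands. The motifs were AACCNGTT for grainyhead factors, the palindrome TGANTCA for AP-1 and the E-box CACCTG bound by Snail and Zeb repressors. Capitals mark a match, and each run reads 5′ to 3′ towards the gene.
Cldn4 (chr5:134946935-134947184, minus strand): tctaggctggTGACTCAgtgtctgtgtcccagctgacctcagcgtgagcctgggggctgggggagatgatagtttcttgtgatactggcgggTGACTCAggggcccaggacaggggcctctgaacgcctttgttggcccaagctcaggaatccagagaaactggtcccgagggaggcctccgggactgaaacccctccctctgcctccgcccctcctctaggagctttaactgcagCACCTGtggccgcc
Cgn (chr3:94786483-94786732, minus strand): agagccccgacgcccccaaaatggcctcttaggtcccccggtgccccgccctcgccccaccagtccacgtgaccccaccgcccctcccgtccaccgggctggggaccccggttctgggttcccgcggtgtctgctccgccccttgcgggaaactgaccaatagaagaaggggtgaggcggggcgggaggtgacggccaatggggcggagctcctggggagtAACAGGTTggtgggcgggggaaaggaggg
Cldn2 (chrX:139800558-139800807, plus strand): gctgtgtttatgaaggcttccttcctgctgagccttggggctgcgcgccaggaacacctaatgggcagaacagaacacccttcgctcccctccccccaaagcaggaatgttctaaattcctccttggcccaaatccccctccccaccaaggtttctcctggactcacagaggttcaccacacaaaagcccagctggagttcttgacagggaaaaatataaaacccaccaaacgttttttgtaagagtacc

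The Cldn4 stretch held 2 AP-1 matches, beginning 240 and 158 bases before the start, and 1 E-box at 14 bases. The Cgn stretch held 1 grainyhead match on the reverse strand, 29 bases before the start, and the Cldn2 stretch held none of the 3 motifs. The bases just after the RefSeq start were found in a GENCODE M21 transcript of the gene for Cldn4 and Cgn but not for Cldn2, whose start has no such support there. Of 11 junction genes that rose and had a window, 2 held a grainyhead match (Cgn and Cldn5), 2 an AP-1 match (Cldn4 and Gja1) and 4 an E-box (Cldn4, Cldn6, Cldn7 and Ocln). Among all 27025 genes with a window the shares were 2%, 7.82% and 19.4%. Of 15 junction genes that were tested but not called, 0 held a grainyhead match, 1 an AP-1 match and 5 an E-box. In the same order the counts were 0, 0 and 1 of 4 that fell, and 1, 4 and 3 of 30 that were not tested. A match is a run of letters and was not tested as a binding site. Cdh1, Cdh3, Cdh11, Cldn8, Dsg2, Marveld3 and Pkp3, which also rose, were not part of the search.

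Adherens junction genes went in both directions: of 10 tested genes 4 rose and 2 fell, against 13.1% and 10.7% of all tested genes. Cdh1 (ENSMUSG00000000303) encodes E-cadherin, the cadherin of bile duct cells and of periportal hepatocytes. It was at 78.4, 57.7 and 60.5 CPM in L-TBA and at 118, 162, 190 and 179 CPM in H-TBA, each H-TBA library above each L-TBA library (log2 fold change 1.31 ± 0.16, adjusted p = 0.000437). Cdh2 (ENSMUSG00000024304) encodes N-cadherin, the other cadherin of mouse hepatocytes. It was lower in every H-TBA library, at 99.8, 101, 80.4 and 92.5 CPM against 134, 118 and 133 CPM (log2 fold change -0.46 ± 0.10, adjusted p = 0.00603).

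Per kilobase of exon, the scale on which genes of different length can be set side by side, Cdh1 and Cdh2 were about level in L-TBA, at 14.3 ± 2.46 and 15.9 ± 1.15 CPM per kb (SD, n = 3). In H-TBA they were at 35.5 ± 6.91 and 11.6 ± 1.16 CPM per kb (SD, n = 4). The ratio of Cdh1 to Cdh2 within a library, which does not depend on how libraries are scaled, was 0.803 to 1.03 in L-TBA and 2.09 to 4.17 in H-TBA. It was lowest within H-TBA in H-TBA 1.

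Of the 5 tested cadherins under 20 CPM, 3 rose, 1 fell and Cdh13, at -0.20 ± 0.26, did not pass (adjusted p = 0.611). Cdh3 (P-cadherin), the neighbour of Cdh1 on chromosome 8, was at 3.20, 2.33 and 1.60 CPM in L-TBA and at 5.32, 7.62, 9.43 and 11.1 CPM in H-TBA (log2 fold change 1.80 ± 0.29, adjusted p = 0.00149). Cdh6 (K-cadherin), known from kidney epithelium, was near 1 CPM in L-TBA and in H-TBA 1 (1.31 CPM), and at 4.01, 4.31 and 4.77 CPM in H-TBA 2, 3 and 4 (log2 fold change 1.93 ± 0.43, adjusted p = 0.00798). Cdh11, a cadherin of mesenchymal cells, rose from 1.04 ± 0.361 to 2.58 ± 0.656 CPM (adjusted p = 0.0141, and 0.0631 without L-TBA replicate 2), beside stellate and fibroblast markers of which 3 rose, 1 fell and 5 did not pass. Cdh18, a cadherin known from the nervous system, fell from 2.50, 1.88 and 2.50 CPM to 0.934, 0.391, 0.325 and 0.405 CPM (log2 fold change -2.16 ± 0.36, adjusted p = 0.0018).

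VE-cadherin (Cdh5), the endothelial cadherin, overlapped between the groups at 22.4 ± 5.87 CPM in L-TBA and 19.2 ± 5.09 CPM in H-TBA (adjusted p = 0.526). The catenins that classical cadherins share did not pass. Ctnnb1 (beta-catenin) was at 269 ± 16.8 CPM in L-TBA and 325 ± 25.8 CPM in H-TBA, a log2 fold change of 0.27 ± 0.10 that did not pass (adjusted p = 0.0676). Ctnna1 (alpha-catenin) was at 0.23 ± 0.08 (adjusted p = 0.0542). For both, all H-TBA libraries lay above all L-TBA libraries, and both passed with DESeq2 (adjusted p = 0.0316 and 0.02) and without H-TBA replicate 1 (adjusted p = 0.0175 and 0.0329). Each lies opposite to another coding gene, Ulk4 and Lrrtm2, whose reads may be mixed with theirs.

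Desmosome genes changed in 4 of 11 tested cases, with 3 higher (27.3%) and 1 lower (9.09%), against 13.1% and 10.7% of all tested genes. Dsg2 (ENSMUSG00000044393), the desmoglein of simple epithelia, was at 165, 151 and 147 CPM in L-TBA and at 200, 258, 279 and 309 CPM in H-TBA (log2 fold change 0.76 ± 0.14, adjusted p = 0.00241). Its partner Dsc2, the desmocollin of the same epithelia, stayed within the range of L-TBA, at 64.2 to 67.6 CPM against 63.2 to 74.8 CPM (log2 fold change -0.08 ± 0.08, adjusted p = 0.518). Per kilobase of exon, the ratio of Dsg2 to Dsc2 was 1.36 to 1.48 in L-TBA and 1.91 to 3.02 in H-TBA, without overlap. Dsg2, like Dsp, Tjp3 and Gja5, overlaps an annotated gene on the opposite strand, so reads of both may be mixed.

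Dsg1c (ENSMUSG00000034774), a desmoglein 1 copy, fell from 26.1, 26 and 19.2 CPM to 13.5, 15.7, 8.46 and 13.8 CPM (log2 fold change -0.89 ± 0.18, adjusted p = 0.00541). Its near-identical neighbours on chromosome 18, Dsg1a and Dsg1b, were at 1.70 and 1.85 CPM in L-TBA, with log2 fold changes of 0.78 ± 0.28 and 0.46 ± 0.31 that did not pass (adjusted p = 0.066 and 0.322). Dsg1a passed with library totals and without H-TBA replicate 1 (adjusted p = 0.0434 and 0.0224). Reads may have been split among the 3 copies, so the value of each is uncertain.

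Of the plaque proteins, plakoglobin (Jup), which desmosomes and adherens junctions share, rose from 69.4, 68.6 and 58.7 CPM to 79.8, 88.6, 102 and 97.4 CPM (log2 fold change 0.49 ± 0.10, adjusted p = 0.00597). Pkp3, the plakophilin found in most simple epithelia but low in hepatocytes, was at 2.76, 3.59 and 4.21 CPM in L-TBA and 5.98, 7.62, 10.4 and 7.93 CPM in H-TBA (log2 fold change 1.19 ± 0.22, adjusted p = 0.00336). The abundant plakophilins Pkp2 and Pkp4 were at -0.01 ± 0.08 and -0.10 ± 0.09 and desmoplakin (Dsp) at 0.10 ± 0.11, and none of the 3 passed (adjusted p = 0.945, 0.45 and 0.568). The signs of Pkp2, Pkp4 and Dsc2 turned with library totals, and that of Pkp2 also without L-TBA replicate 2 or 3.

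Of 9 gap junction genes tested 3 rose (33.3%) and 1 fell (11.1%), against 13.1% and 10.7% of all tested genes. Connexin 32 (Gjb1, ENSMUSG00000047797), the most abundant connexin of these livers, overlapped between the groups: 402, 396 and 425 CPM in L-TBA and 401, 395, 355 and 415 CPM in H-TBA (log2 fold change -0.06 ± 0.09, adjusted p = 0.697, with the sign turned under library totals). Connexin 26 (Gjb2, ENSMUSG00000046352) was at 356, 330 and 346 CPM in L-TBA and at 310, 224, 243 and 259 CPM in H-TBA, where H-TBA 1 lay nearest to L-TBA. Its log2 fold change of -0.41 ± 0.11 passed (adjusted p = 0.0225), and was no longer called when H-TBA 2, 3 or 4, or L-TBA 1 or 3, was left out (adjusted p = 0.0535 to 0.0823) and with library totals (0.0753). No gap junction gene was called lower in those fits, and with library totals 4 were called higher.

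The 3 connexins that rose were all under 20 CPM. Connexin 43 (Gja1, ENSMUSG00000050953), which in liver is known from stellate cells, endothelium, mesothelium and bile duct cells, was at 10.6, 6.37 and 6.51 CPM in L-TBA and at 16.3, 17, 16.9 and 18 CPM in H-TBA. Its H-TBA libraries were close together, H-TBA 1 included, and the log2 fold change was 1.12 ± 0.17 (adjusted p = 0.0011).

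Of the 3 gap junction genes that rose, 1 was called without H-TBA replicate 3 and 1 without H-TBA replicate 4, and 2 when H-TBA 2, L-TBA 1 or L-TBA 3 was left out. Connexin 45 (Gjc1), at 0.99 ± 0.34, missed the threshold (adjusted p = 0.0568, and 0.0378 without H-TBA replicate 1). The arterial connexins 37 and 40 (Gja4 and Gja5) were at 0.27 ± 0.21 and 0.03 ± 0.28 with adjusted p-values of 0.402 and 0.953, and the sign of Gja5 turned when H-TBA 3 or L-TBA 3 was left out.

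The make-up of the families shifted within each library. Each member's CPM per kilobase of exon was divided by the sum over its family, which makes the shares independent of library scaling. Cldn3 made up 47.4% ± 1.26 of the claudins in L-TBA (SD, n = 3) and 52.9% ± 1.46 in H-TBA (SD, n = 4), and Cldn2 24.9% ± 2.27 and 12.0% ± 3.22. Cldn4, Cldn6 and Cldn7 had 1.06%, 0.655% and 1.21% in L-TBA and 5.07%, 2.79% and 4.07% in H-TBA. The share of each was higher in every H-TBA library than in any L-TBA library. By group means the next single claudins after Cldn3 and Cldn2 were Cldn1, at 9.97% ± 1.51 and 7.81% ± 0.391, and Cldn12, at 9.55% ± 0.700 and 7.24% ± 1.59. Cldn1 and Cldn12 lay within their spread of each other in both groups.

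Among the cadherins, Cdh1 had 38.1% ± 3.04 in L-TBA and 64.0% ± 3.72 in H-TBA, and Cdh2 42.6% ± 2.57 and 21.5% ± 5.16. Cdh5 had 14.1% ± 2.78 and 8.17% ± 1.14, although its own level did not pass the test. Among the connexins Gjb1 had 61.7% ± 1.02 in L-TBA and 66.5% ± 2.70 in H-TBA, and Gjb2 37.0% ± 1.01 and 31.1% ± 2.85. Summed over a class, gap junction transcripts lay at 744 to 789 CPM in L-TBA and 634 to 741 CPM in H-TBA. The adherens sum was 651 to 699 CPM in L-TBA and 727 to 861 CPM in H-TBA. The desmosome sum was 584 to 647 CPM in L-TBA and 660 to 815 CPM in H-TBA. The tight junction sums overlapped, at 906 to 941 and 884 to 1110 CPM.

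**Figure D3:**
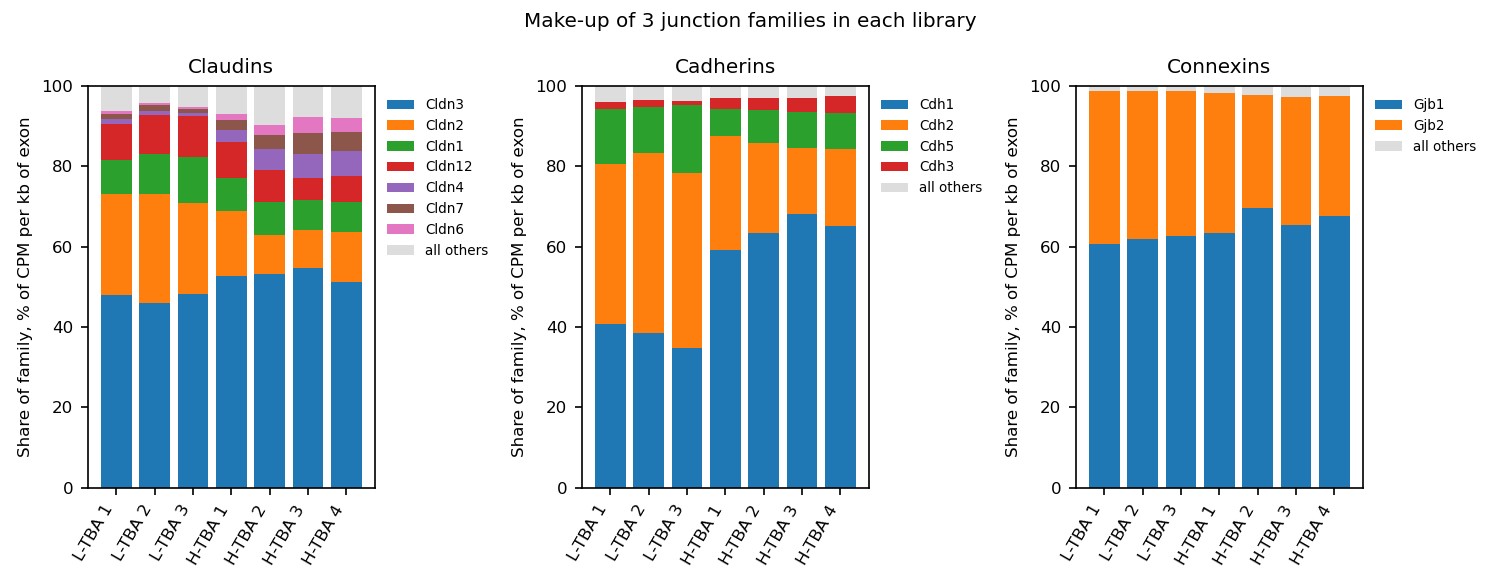
Share of each member in the summed CPM per kilobase of exon of the claudins, cadherins and connexins (vertical axis, percent), 1 bar per library. Cdh1 takes 34.8% to 40.9% of the cadherins in the L-TBA bars and 59.3% to 68.2% in the H-TBA bars, while Gjb1 and Gjb2 fill nearly all of the connexin bars in both groups.

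Rises were mostly found at genes of low level. Of 27 tested junction genes with a mean under 20 CPM over the 7 libraries, 14 rose and 2 fell (Cdh18 and Dsg1c), and their median log2 fold change was 0.98. Of 25 at 20 CPM or more, 6 rose (Cdh1, Cgn, Cldn3, Dsg2, Jup and Ocln) and 4 fell (Cdh2, Cgnl1, Cldn2 and Gjb2), with a median of 0.17. The same split over all tested genes gave 16.4% higher and 6.33% lower under 20 CPM, and 8.91% higher and 16.4% lower at or above it. The split at 20 CPM was chosen after the values had been seen.

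**Figure D4:**
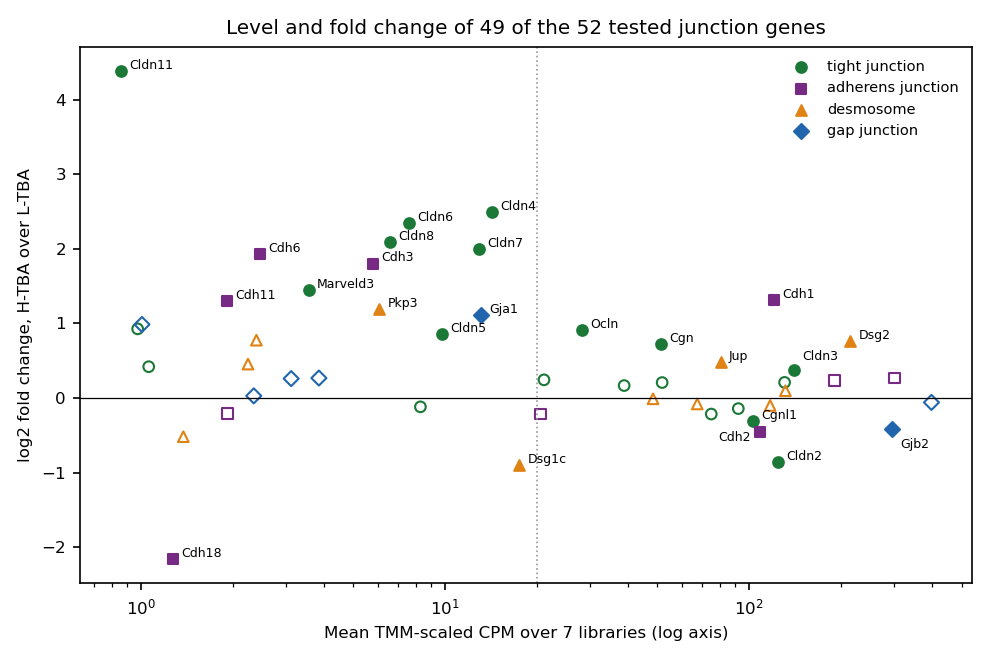
Mean TMM-scaled CPM over the 7 libraries (log axis) against log2 fold change (H-TBA over L-TBA) of 49 of the 52 tested junction genes, with a symbol and colour for each class, filled where the gene passed the test. The dotted line marks 20 CPM: 12 of the 25 genes shown to its left rose, against 6 of 24 to its right, where 4 fell.

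Junction genes that lie side by side on a chromosome did not always move together. In RefSeq's order of coding genes (GRCm38.p6), Cldn4 and Cldn3 on chromosome 5 are neighbours and both rose, as did Cdh3 and Cdh1 on chromosome 8. Ocln rose while its neighbour Marveld2 on chromosome 13 did not pass, and Cdh11 rose next to Cdh5, which did not pass. Cldn6 rose beside Cldn9, which had no count in any library, and Cldn8 beside Cldn17, also without a count.

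Genes that work with these junctions but fall outside the families were followed in 4 lists, of which 63 genes were tested, 24 rose and 3 fell, where 13.1% and 10.7% of all tested genes did. In 24 scaffold and polarity genes 9 rose and 1 fell. Llgl2, a basolateral polarity protein, was at 24.9, 32.5 and 29.6 CPM in L-TBA and at 45.7, 61.8, 59.2 and 55.1 CPM in H-TBA (log2 fold change 0.94 ± 0.12, adjusted p = 0.000545). Amotl1, an angiomotin of tight junctions, rose by 1.07 ± 0.19 (adjusted p = 0.0023), and Lin7a, a scaffold of the Crumbs and Pals1 complex, fell from 18.9, 17 and 16.3 CPM to 10.1, 6.55, 4.55 and 4.53 CPM (adjusted p = 0.00149).

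In 17 adhesion genes 7 rose and 1 fell. Epcam, a surface protein of bile duct cells that is also among their markers here, rose by 2.27 ± 0.27 (adjusted p = 0.000329), Ildr1, an angulin at contacts of 3 cells, by 1.95 ± 0.26 (adjusted p = 0.000545) and Jam3 by 1.42 ± 0.27 (adjusted p = 0.00376). In 14 linker genes 5 rose and 1 fell. The p120-catenin relatives Arvcf and Ctnnd2 rose by 0.74 ± 0.09 and 2.50 ± 0.43 (adjusted p = 0.000433 and 0.00203), and envoplakin (Evpl), a plakin of stratified epithelia, by 2.14 ± 0.31 (adjusted p = 0.000821).

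Of 8 tested transcription and splicing regulators of epithelial junctions 3 rose and 0 fell by edgeR. At an unadjusted p of 0.05 the count that fell was also 0, by edgeR, DESeq2 and limma-voom alike. Grhl2, a grainyhead factor of epithelia, was at 2.25, 2.69 and 1.40 CPM in L-TBA and at 4.95, 6.06, 10.002 and 9.55 CPM in H-TBA (log2 fold change 1.85 ± 0.31, adjusted p = 0.00174). The splicing factor Esrp1 rose by 2.43 ± 0.42 (adjusted p = 0.00205; 3.30 without L-TBA replicate 1) and Ovol2 by 1.80 ± 0.41 (adjusted p = 0.00912). The count of 24 genes that rose over the 4 lists fell to 13 when H-TBA 4 was left out and to 14 when L-TBA 2 or 3 was.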

How the data were processed

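The authors' deposited table holds unnormalized counts, 1 row per Ensembl gene, for 7 libraries. Per the submitters' processing notes the mm9 build, TopHat2 2.0.11, CASAVA and DESeq2 1.18.1 were used, in roles that are not given. No source used here gives the counting tool, its annotation or its strand setting. Totals were 9996990 to 12152613 counts per library, and no column was left unused. No pair of libraries within a group agreed within sampling noise (chi-square per degree of freedom at least 5.29).

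Counts were scaled by TMM, filtered with filterByExpr (minimum count 10) and tested with edgeR 4.0.16 (quasi-likelihood, R 4.3.3), H-TBA against L-TBA, with Benjamini-Hochberg adjustment over all 15249 genes tested. DESeq2 1.42.0, limma-voom (3.58.1), other scalings, filters and thresholds, a replicate block and leaving out each library were alternatives. On simulated counts of 14690 genes, 72.4% of 2-fold and 97.8% of 4-fold changes were recovered, and 8.52% of calls were false. Levels are TMM-scaled CPM, and levels per kilobase use the union of exons in GENCODE M21. RefSeq supplied promoters and gene order (GRCm38.p6). Since the files use mm9, no positions are given for measured values.

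Named genes were, in each class, those past the threshold up to the 8 with the smallest adjusted p, plus a list of liver members, and up to 3 genes from each list of other junction genes. Cldn12, Cdh13, Marveld2, Dsg1a, Dsg1b, the ratios between members and the motifs were picked after values had been seen. The members and lists were chosen with earlier results of these data known. Intervals and floors cover counting error only. Values of some members are not reported here, though counts over the members include them.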

Additional observations from a re-analysis of the deposited data

Results flagged for a closer look

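For 3 of the 52 tested junction genes, 1 H-TBA library lay far from the other 3, with a gap to its nearest neighbour above Dixon's 95% critical value as a share of the group's range. Chance alone flags about 1 in 20 such groups. Cdh18 was at 0.934 CPM in H-TBA 1 and at 0.325 to 0.405 CPM in the others (gap 0.870 of the range). Tjp1 was at 47.7 CPM in H-TBA 1, below the other H-TBA libraries (0.897). Gja5 was at 2.93 CPM in H-TBA 3, above the others (0.872), and its log2 fold change of 0.03 turned to -0.09 without that library.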

How the results depend on the processing

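Of the 20 members that rose, 11 were called under every alternative (Cdh1, Cdh3, Cldn4, Cldn6, Cldn7, Cldn8, Dsg2, Gja1, Marveld3, Ocln and Pkp3). Of the 6 that fell, Cldn2 and Dsg1c were. Cdh18 was also called under every alternative, but was over the filter in 3 L-TBA libraries and only 1 H-TBA library. It entered the test through the group where it was high, so it is not counted as stable. Genes over the filter in H-TBA only, such as Cldn11, are not counted either, since a rise was the only change they could show. Over named genes and settings, 822 values kept direction and side of the threshold, 37 lost the call and 19 gained it. The 10 that turned sign were small: with library totals Cldn1 0.023, Cldn14 0.042, Dsc2 0.075, Gjb1 0.098, Pkp2 0.15 and Pkp4 0.056, where the median of all genes moved to 0.16. Over fits that each left out 1 library, Gja5 ranged from -0.22 (L-TBA 3 left out) to 0.27, with -0.09 when H-TBA 3 was left out, and Pkp2 from -0.065 to 0.025, positive when L-TBA 2 or 3 was left out. The cause was not tested. Genes called lower went from 2 to 1 (tight junction) and from 1 to 0 (gap junction) with library totals and at an adjusted p of 0.01. Other junction genes that rose went from 24 to 32 with library totals and to 12 at an adjusted p of 0.01.

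Leaving out 1 library at a time gave 15 to 26 members higher and 4 to 7 lower. By class, 7 to 13 tight junction genes were higher and 1 to 3 lower, 3 to 6 adherens junction genes higher and 2 lower, 3 to 4 desmosome genes higher and 1 lower, and 1 to 3 gap junction genes higher and 0 to 1 lower. Of the other junction genes 13 to 28 were higher and 2 to 3 lower.

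Replicate numbers in the titles did not pair the libraries: deviations of same-numbered libraries correlated at -0.10, -0.06 and -0.06. With the replicate number as a block, 14 members rose and 3 fell. The tight junction genes called lower were then 1, the adherens junction genes 1 and the gap junction genes 0, and 12 other junction genes rose. Genes with only a few counts per library are limited by depth.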

Other observations

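Members that were not tested had at most 26 counts in a library. Cldn15, a cation-pore claudin known from intestine, had 8, 26, 8 and 10 counts in H-TBA and 2, 1 and 3 in L-TBA, and was called higher when no filter was used. Its mean of 1.19 CPM in H-TBA was 0.736 CPM without H-TBA 2, against 0.188 CPM in L-TBA. Cdh24 had 43 counts in H-TBA and 13 in L-TBA, of which 8 were in L-TBA 1. It passed the filter and was called higher only without that library. In the main fit 2 H-TBA libraries and 0 L-TBA libraries were over the filter's cutoff for Cdh24. A rise was therefore the only change it could show, and the call is a description. Cdh17, a cadherin of liver and intestine, had 0 counts in H-TBA and 4, 3 and 0 in L-TBA, so the groups overlapped. Against a floor of 3 counts over the H-TBA group it was 3.25-fold lower. That value takes the 7 L-TBA counts as exact, so the true difference may be smaller.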
